A study of Mus musculus with 24 samples.

Results

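Metallothioneins are small cysteine-rich proteins that bind zinc and copper, buffer the free metal in a cell and take up reactive oxygen species. Mt1 and Mt2 are expressed in most organs, in the brain mainly by glia, and are induced by metals, glucocorticoids and oxidative stress, the metal response running through the transcription factor MTF-1 (gene Mtf1) at short promoter sequences called metal response elements. Mt3, first described as growth inhibitory factor, is enriched in brain and responds little to metals, and Mt4 is a gene of stratified squamous epithelia. The rows of Mt1, Mt2 and Mt3, 3 of the 24079 genes of the count table, were followed through all 24 libraries. They were chosen by the genotype difference of Mt1 and Mt2 in polysomes, which had opposite directions in the 2 regions, so these genotype differences in polysomes are described without a test.

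The libraries came from dorsal striatum (DS) and from nucleus accumbens (Acb) tissue of wild-type mice and of rpS6P-/- mice, knockin animals in which each phosphorylatable serine of ribosomal protein S6 is replaced by alanine. The knockin is constitutive and present in every cell, the animals were littermates of both sexes from heterozygous crosses on a mixed C57Bl/6, Sv129 and ICR background, and each replicate pooled several mice, so that no value belongs to a single animal. Each lysate gave 2 kinds of RNA, that of the whole lysate and that of the heavy polysomal fractions of a sucrose gradient, where mRNAs carry many ribosomes. The 8 groups of region, genotype and kind of RNA held 3 replicates each, and the labels name no treatment. A count table cannot show the serine replacement, so the genotype labels were not checked here.

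Assigned reads ranged from 9280589 to 34703044 per library. All 10 markers of oligodendrocytes, all 12 of astrocytes and 9 of 10 of medium spiny neurons (Drd1 is no symbol of the table) were detected. The markers of medium spiny neurons, the principal cells of both regions, summed to between 3976 and 5059 CPM (reads of a gene scaled to the size of its library) in whole lysates. Cortical excitatory neuron markers summed to between 987 and 1163 CPM in DS lysates and to between 195 and 331 CPM in Acb lysates.

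The 3 genes lie in 1 cluster on mouse chromosome 8 (GRCm38.p6, plus strand), in the order Mt4 (94137204 to 94139031), Mt3 (94152607 to 94154148), Mt2 (94172618 to 94173567) and Mt1 (94178883 to 94180327). Mt2 and Mt1 are separated by 5315 bases, and Mt3 and Mt2 by 18469 bases. Each has 3 exons. The GENCODE M21 transcripts used for length hold 549 bases for Mt1, 511 for Mt2 and 536 for Mt3. The coding sequences are shown because their shortness and cysteine content define the family and because the counting has to tell them apart. The capitals mark the cysteine codons TGC and TGT.
Mt1: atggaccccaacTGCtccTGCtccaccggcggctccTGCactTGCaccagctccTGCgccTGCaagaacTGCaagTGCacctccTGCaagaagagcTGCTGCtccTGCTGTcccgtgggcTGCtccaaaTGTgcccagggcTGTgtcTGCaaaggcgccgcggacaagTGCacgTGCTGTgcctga
Mt2: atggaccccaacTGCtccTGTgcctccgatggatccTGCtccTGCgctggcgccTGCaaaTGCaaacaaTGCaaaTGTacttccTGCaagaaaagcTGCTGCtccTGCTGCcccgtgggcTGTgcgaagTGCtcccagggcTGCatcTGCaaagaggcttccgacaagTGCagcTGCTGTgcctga
Mt3: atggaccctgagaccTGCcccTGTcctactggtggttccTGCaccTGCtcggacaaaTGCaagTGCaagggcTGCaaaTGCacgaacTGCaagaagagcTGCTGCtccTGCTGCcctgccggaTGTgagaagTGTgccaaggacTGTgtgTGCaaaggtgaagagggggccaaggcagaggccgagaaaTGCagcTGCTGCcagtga

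Each of the 3 coding sequences holds 20 cysteine codons, 32.8% of the 61 codons of Mt1 and of Mt2 and 29.4% of the 68 codons of Mt3. Mt1 and Mt2 are identical at 148 of 186 bases (79.6%) without a gap, whereas Mt3 matches Mt1 at 66.2% and Mt2 at 67.6% of 207 aligned columns with 21 gap columns. Reads were 50 bases long. None of the 500 stretches of 50 bases in the Mt1 transcript, the 462 of Mt2 and the 487 of Mt3 occurred exactly in a transcript of another gene. The closest stretch of another metallothionein differed by 5, 4 and 6 bases, respectively, against the 3 mismatches that the authors' alignment allowed. The genome itself was not searched, so processed pseudogenes outside the annotated transcripts were not covered.

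The promoters of Mt1 and Mt2 are shown because the metal response elements that define these genes lie there. They are RefSeq windows on GRCm38.p6, plus strand, at chr8:94178839-94179118 for Mt1 and chr8:94172368-94172647 for Mt2, from 250 bases before to 30 bases from a start site at 94179089 for Mt1 and 94172618 for Mt2. For Mt1 this site lies 206 bases inside the gene as bounded above and 7 bases after the start of the transcript used for length, and for Mt2 46 bases before it, so positions of motifs hold for these start sites only. Capitals mark the core TGCACNC or TGCGCNC, searched on both strands, and a core on the minus strand reads as its reverse complement.
Mt1: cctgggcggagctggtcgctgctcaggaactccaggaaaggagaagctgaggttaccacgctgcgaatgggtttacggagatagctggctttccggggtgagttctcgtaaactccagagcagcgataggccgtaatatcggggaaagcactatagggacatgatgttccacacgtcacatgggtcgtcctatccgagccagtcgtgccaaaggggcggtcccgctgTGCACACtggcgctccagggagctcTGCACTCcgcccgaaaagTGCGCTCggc
Mt2: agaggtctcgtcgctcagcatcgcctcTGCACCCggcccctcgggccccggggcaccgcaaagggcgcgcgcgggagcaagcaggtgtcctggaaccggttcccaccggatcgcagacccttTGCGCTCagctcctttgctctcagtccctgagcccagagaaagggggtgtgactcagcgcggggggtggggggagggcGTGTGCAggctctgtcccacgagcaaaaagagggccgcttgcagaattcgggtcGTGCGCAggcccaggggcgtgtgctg

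The Mt1 window held 3 cores, all on the plus strand, beginning at -23, 2 and 20, where the window's start site is counted as 0. The Mt2 window held 4, at -223 and -128 on the plus strand and at -50 and 4 on the minus strand. Mt3 had 1 core, at 27. Over 32851 windows of 300 bases, 25.7% held at least 1 core, 1.97% at least 3 and 0.517% at least 4. An antioxidant response element, TGACNNNGC, occurred once in the Mt2 window and not in those of Mt1 and Mt3, and was present in 12.4% of all windows. TATAAA was in none of the 3 windows, which says only that these letters are not in these bases.

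All 3 members were abundant. Mt1 had between 749 and 9760 reads per library, Mt2 between 425 and 4666 and Mt3 between 749 and 7928. Mt4, by contrast, had 5 reads in the first wild-type heavy library of the Acb and 0 in the other 23 libraries, and was not tested.

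In the whole lysates of wild-type Acb tissue, Mt1 was at 213, 233 and 278 CPM, and in those of rpS6P-/- mice at 227, 191 and 230 CPM. In whole DS lysates it was at 150, 143 and 117 CPM in wild-type and at 121, 121 and 118 CPM in rpS6P-/- mice. Every Acb lysate was thus above every DS lysate. Mt2, the second inducible member, was at 117, 124 and 138 CPM in wild-type and at 141, 91.4 and 124 CPM in rpS6P-/- Acb lysates. Its DS lysates were at 68.5, 73.4 and 50.5 CPM in wild-type and 65.5, 62.5 and 62.0 CPM in rpS6P-/- mice, again all below those of the Acb. Mt3, the brain form, was at 209, 222 and 245 CPM and at 226, 203 and 211 CPM in wild-type and rpS6P-/- Acb lysates. In DS lysates Mt3 was at 208, 161 and 111 CPM in wild-type and 167, 176 and 146 CPM in rpS6P-/- mice. For Mt3 the regions overlapped, since the highest DS lysate reached into the Acb range. Among 11491 genes with at least 50 reads on average, 5.61% had all 6 Acb lysates above all 6 DS lysates.

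**Figure D1:**
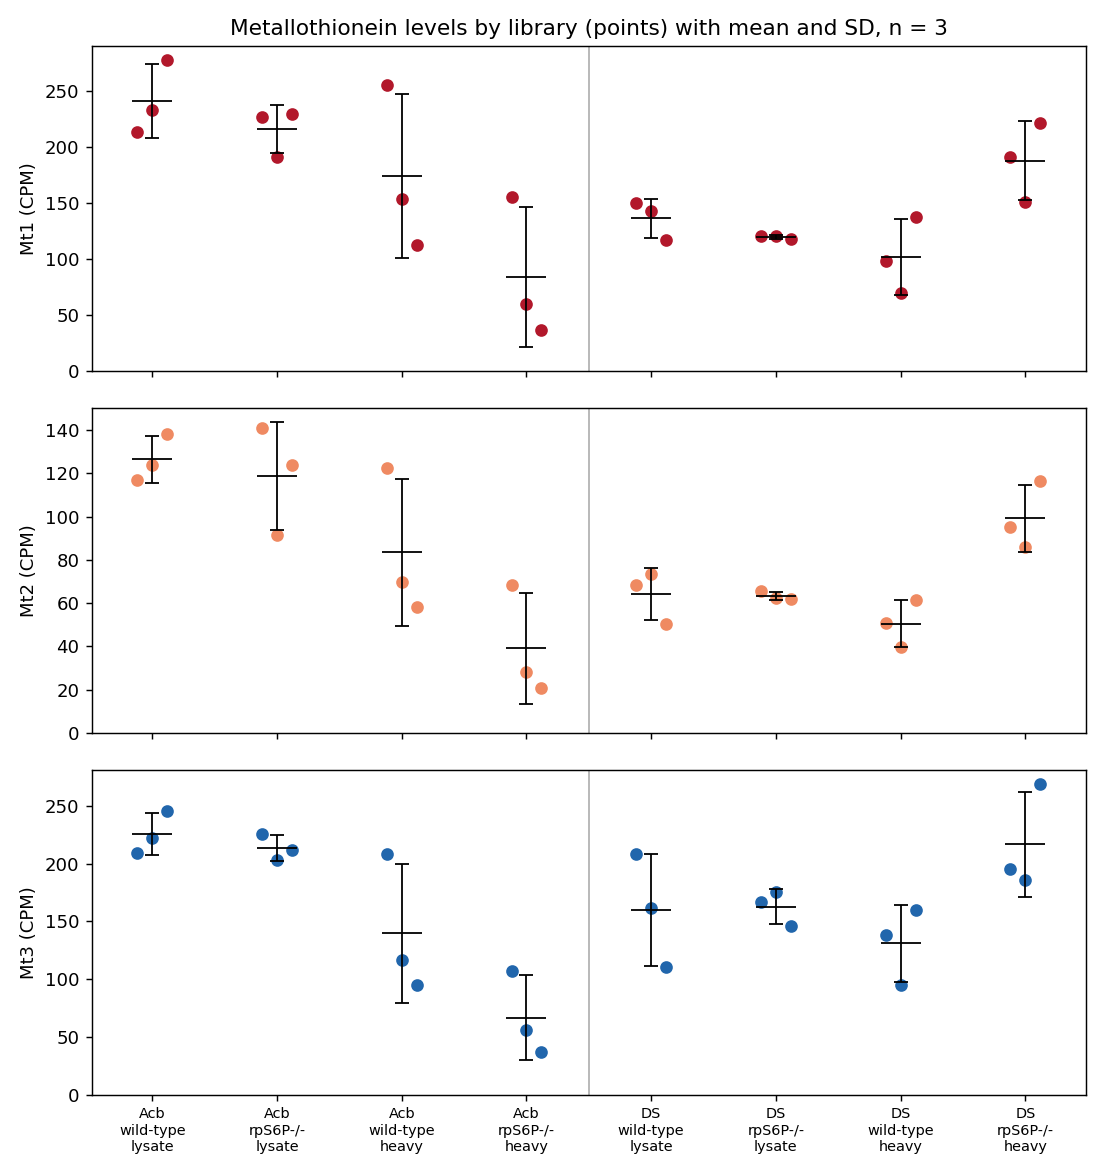
Level of Mt1, Mt2 and Mt3 (vertical axes, CPM) in each of the 24 libraries (points), by region, kind of RNA and genotype, with the mean and SD of 3 replicates. In whole lysates Mt1 and Mt2 sit higher in the Acb than in the DS with no overlap, while in heavy polysomal fractions replicates of a group spread widely and the rpS6P-/- mean is below wild-type in the Acb and above it in the DS.

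Per length, Mt2 was the least abundant member in all 24 libraries. In CPM per kilobase of transcript, Mt1 averaged 440 ± 59.9, Mt3 421 ± 34.1 and Mt2 248 ± 21.3 (SD, n = 3) in wild-type Acb lysates, and Mt3 averaged 298 ± 90.8, Mt1 248 ± 31.5 and Mt2 126 ± 23.6 in wild-type DS lysates. Mt1 ranked first in 3 of 6 Acb lysates and Mt3 in the other 3, so these neighbours in the order did not differ beyond their spread, whereas Mt3 ranked first in 5 of 6 DS lysates and in 6 of 6 DS heavy libraries and Mt1 in 5 of 6 Acb heavy libraries.

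Comparison of the regions in whole lysates, averaged over genotypes, asked where the members are expressed more. All 3 rose in the Acb relative to the DS, where 9.87% of 16364 genes passed the test in this direction. Mt2 was 1.97-fold higher (log2 difference 0.98 ± 0.10 SE, adjusted p = 6.08e-12 with edgeR), Mt1 was 1.83-fold higher (0.87 ± 0.09, adjusted p = 5.22e-13 with edgeR) and Mt3 was 1.39-fold higher (0.48 ± 0.09, adjusted p = 4.16e-05 with edgeR). The calls held without each library in turn, with the lowest log2 differences at 0.82 for Mt1, 0.89 for Mt2 and 0.38 for Mt3. In bulk tissue, a larger share of expressing cells and more RNA per cell cannot be told apart.

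Ratios between members within a library do not depend on library size or on the normalization. In whole lysates the Mt2 to Mt3 read ratio lay between 0.450 and 0.624 in the Acb and between 0.329 and 0.457 in the DS, a 1.39-fold difference (exact permutation test of 6 against 6 lysates, two-sided, p = 0.00649, adjusted p = 0.0325 over 6 tests of ratios). The Mt1 to Mt3 ratio lay between 0.941 and 1.13 in the Acb and between 0.687 and 1.06 in the DS, a 1.29-fold difference (exact permutation p = 0.0108, adjusted p = 0.0325). The Mt1 to Mt2 ratio lay between 1.61 and 2.09 in the Acb and between 1.85 and 2.31 in the DS, and the difference did not pass the test (0.929-fold, exact permutation p = 0.190, adjusted p = 0.229). Relative to Mt3, therefore, both inducible members were higher in the Acb. With 1 lysate left out the directions held, but the adjusted exact p of Mt1 to Mt3 reached 0.0649 and exceeded 0.05 without any of 8 of the 12 lysates, and that of Mt2 to Mt3 reached 0.0519 without any of 5.

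**Figure D2:**
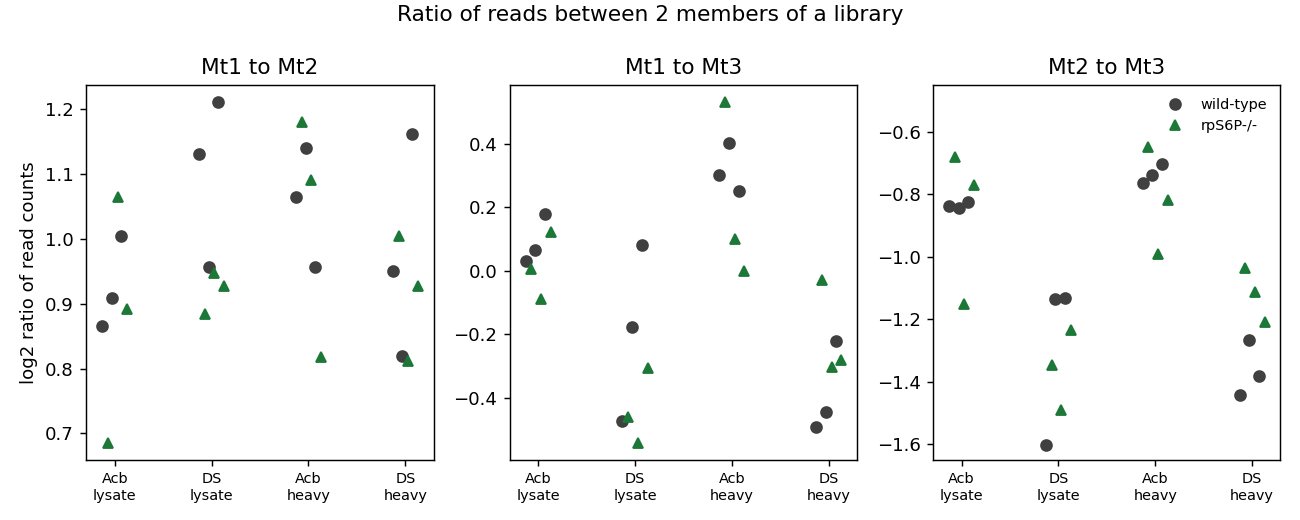
Log2 ratio of read counts between members (vertical axes) in each library, by region and kind of RNA, with wild-type as circles and rpS6P-/- as triangles. The ratios of Mt1 and Mt2 to Mt3 are higher in the Acb than in the DS, with single lysates that overlap, whereas the Mt1 to Mt2 ratio stays between 1.61 and 2.31 in all libraries, on the linear scale.

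Markers of astrocytes, cells known to express metallothioneins, were also higher in the Acb: 9 of 12 rose and 0 fell, with a median log2 difference of 0.44 against 0.01 over all genes tested. Slc1a3, a glutamate transporter, differed by 1.08 ± 0.08 and Gja1, the connexin of astrocyte gap junctions, by 0.87 ± 0.09, while Gfap (0.28 ± 0.13, edgeR adjusted p = 0.12) and Sox9 (0.00 ± 0.15) did not pass. Summed over the list, astrocyte markers ranged from 3610 to 4907 CPM in Acb lysates and from 3015 to 3651 CPM in DS lysates. Microglial markers rose in 9 of 10 cases (median 0.88), oligodendrocyte markers in 6 of 10 (0.36) and choroid plexus and ependyma markers in 5 of 7 (1.23), the last summing to no more than 68.0 CPM in any lysate. Endothelial markers had 0 of 10 past the edgeR test. Of 9 markers of medium spiny neurons 6 fell and 2 rose in the Acb (median -0.29). The part of these cell types in the metallothionein difference was not tested.

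Most genes of zinc and copper handling did not pass the test between regions. Mtf1, which encodes the metal-sensing factor, was -0.21 ± 0.13 in the Acb relative to the DS (edgeR adjusted p = 0.29). Slc30a1, the plasma membrane zinc exporter that MTF-1 induces together with Mt1 and Mt2, rose by 0.53 ± 0.13 (edgeR adjusted p = 0.0011). Of the 10 genes of MTF-1 and zinc exporters 2 rose and 1 fell, with a median of -0.08. The gene that fell was Slc30a3 (-2.32 ± 0.23), the transporter that fills synaptic vesicles with zinc. It moved with the cortical excitatory neuron markers, of which 6 of 8 fell and 0 rose (median -2.65), and their part in its value was not tested. Among 12 zinc importers tested, 3 rose and 1 fell (median 0.32, 10 of 12 above 0), with Slc39a12 at 0.73 ± 0.16, Slc39a11 at 0.63 ± 0.22 and Slc39a10 at -0.60 ± 0.10. Of 12 genes of copper handling 2 rose, Sod1, the copper-zinc superoxide dismutase, by 0.47 ± 0.09 and Slc31a1, the copper importer, by 0.54 ± 0.19, and 0 fell. The differences of all 12 copper genes were above 0, with a median of 0.25.

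**Figure D3:**
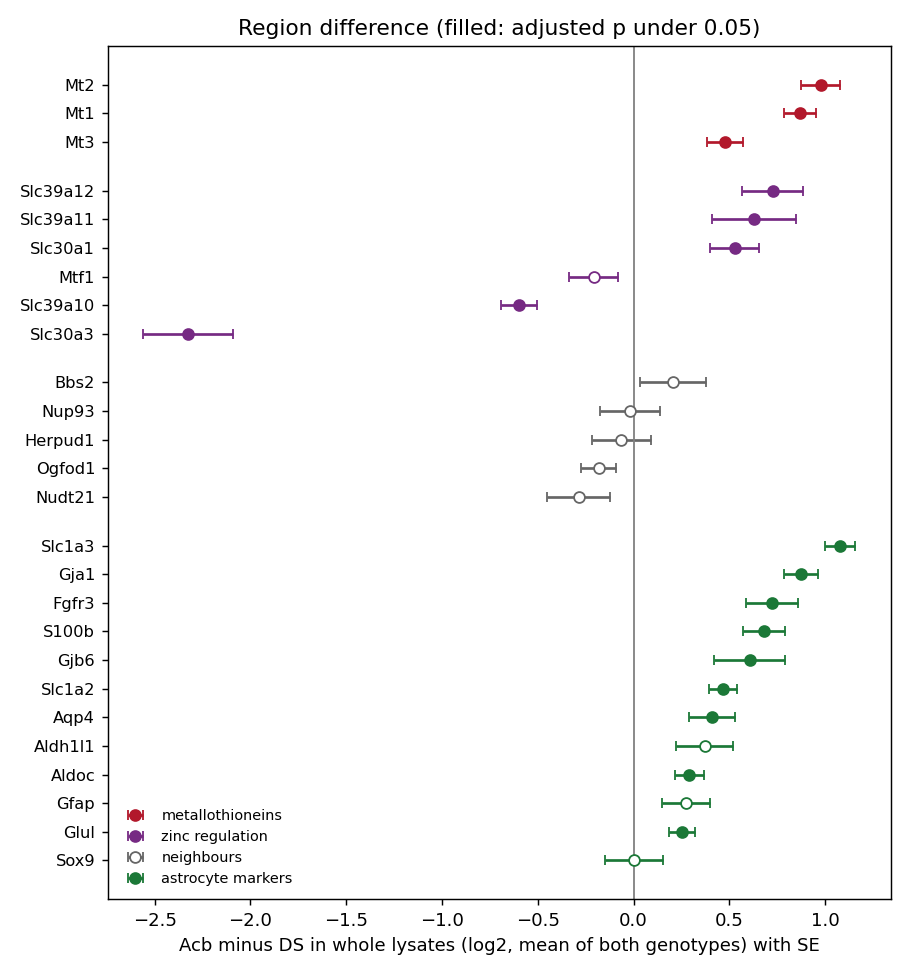
Log2 difference between Acb and DS in whole lysates (horizontal axis, mean of both genotypes, with SE) for the metallothioneins, genes of zinc regulation, genes next to the cluster and astrocyte markers, filled where the edgeR adjusted p was under 0.05. Mt1, Mt2, Slc1a3 and Gja1 lie between 0.87 and 1.08, while none of the cluster's neighbours passed the test.

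Glucocorticoids and oxidative stress are further known inducers of Mt1 and Mt2. Of 14 glucocorticoid-induced genes 0 rose and 4 fell in the Acb (median -0.25), led by Klf9 at -0.94 ± 0.08. Over all genes, between 2838 and 3159 passed this region test in either direction with 1 lysate left out. The share of all genes that fell is not given here. Of 15 oxidative stress genes 2 rose and 0 fell (median 0.03), among them Slc7a11, the cystine importer, at 0.54 ± 0.18. The nearest protein-coding genes outside the cluster, Nudt21, Ogfod1 and Bbs2 on the Mt4 side and Nup93 and Herpud1 on the Mt1 side, differed by between -0.29 and 0.21, and 0 of 5 passed the edgeR test. Slc12a3 averaged no more than 0.163 CPM in any group and was below the read filter in lysates.

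Genotype was tested in whole lysates, which the choice of members did not use. In the Acb, where 0.0065% of 15393 genes passed, 0 of the 3 members did with edgeR, with DESeq2 or at an unadjusted p under 0.05. The log2 differences of rpS6P-/- relative to wild-type were -0.16 ± 0.13 for Mt1, -0.09 ± 0.15 for Mt2 and -0.09 ± 0.12 for Mt3 (SE, adjusted p = 0.9996 for each with edgeR). In the DS, where 0.122% of 15601 genes passed, the count was again 0 of 3 in all of these tests, with -0.21 ± 0.11 for Mt1 (edgeR adjusted p = 0.604), -0.04 ± 0.14 for Mt2 (0.978) and 0.00 ± 0.13 for Mt3 (0.996). The genotypes overlapped for every member in both regions, while 7.86% of 11238 genes in the Acb and 15% of 11607 genes in the DS did not overlap. The difference between the regions in this effect was 0.04 ± 0.17 for Mt1, -0.06 ± 0.20 for Mt2 and -0.09 ± 0.18 for Mt3, where 0.00611% of all genes and 0 of 3 members passed with edgeR and with DESeq2, and 0 of 3 at an unadjusted p under 0.05. The lists of zinc, copper, glucocorticoid and oxidative stress genes likewise had 0 members past the edgeR test between genotypes in either region.

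In heavy polysomal fractions the members followed another pattern, which is given as a description because it chose them. In the Acb, Mt1 was at 256, 154 and 113 CPM in wild-type and at 155, 60.1 and 36.6 CPM in rpS6P-/- mice. Mt2 was at 122, 69.8 and 58.1 CPM and at 68.5, 28.2 and 20.8 CPM, and Mt3 at 208, 116 and 94.6 CPM and at 107, 56.1 and 36.6 CPM. Of the rpS6P-/- libraries, 2 of 3 lay below every wild-type library for each member and the other lay within the wild-type range, so that 0 of 3 members were without overlap, where 15.6% of 12477 genes had every rpS6P-/- library below every wild-type library. The fitted log2 differences were -1.02 ± 0.38 for Mt1, -1.07 ± 0.34 for Mt2 and -1.04 ± 0.32 for Mt3 (SE).

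In DS heavy polysomal fractions Mt1 was at 98.2, 69.6 and 137 CPM in wild-type and at 191, 151 and 221 CPM in rpS6P-/- mice. Mt2 was at 50.8, 39.5 and 61.3 CPM and at 95.2, 85.9 and 116 CPM, and Mt3 at 138, 94.8 and 160 CPM and at 195, 186 and 269 CPM. Here each rpS6P-/- library was above each wild-type library for all 3 members, as was the case for 5.56% of 11916 genes. The fitted log2 differences were 0.90 ± 0.20 for Mt1, 0.98 ± 0.20 for Mt2 and 0.74 ± 0.19 for Mt3 (SE). Mt3 therefore moved in the same directions as the pair for which the members were chosen. The spread inside a group was wide. Among rpS6P-/- heavy libraries of the Acb the highest Mt1 level was 4.24 times the lowest, against 1.20 times among the matching whole lysates. Leaving out 1 library moved the Acb difference of Mt1 between -1.82 and -0.63, that of Mt2 between -1.73 and -0.67 and that of Mt3 between -1.56 and -0.62.

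Markers of other cell types moved unevenly beside these differences. The summed level of astrocyte markers in the Acb was between 3050 and 4467 CPM in wild-type and between 4246 and 4913 CPM in rpS6P-/- heavy libraries (median log2 difference 0.28, 10 of 12 above 0). In the DS the ranges were 2193 to 2903 CPM and 2022 to 3124 CPM (median 0.13, 8 of 12 above 0). Oligodendrocyte markers summed to between 5179 and 6403 CPM in wild-type and between 4963 and 5467 CPM in rpS6P-/- heavy libraries of the Acb (median -0.49, 6 of 10 below 0), and to between 4081 and 4377 CPM and between 3652 and 5628 CPM in the DS (median 0.12). Choroid plexus and ependyma markers lay between 84.1 and 94.5 CPM and between 72.0 and 73.9 CPM in the Acb (median -0.07, 3 above 0 and 4 below). In the DS they lay between 19.8 and 23.3 CPM and between 26.7 and 36.1 CPM, and 7 of 7 were above 0 (median 1.16). The summed choroid plexus and ependyma level thus differed in the directions of the members, without overlap, in both regions, although single markers were split in the Acb. Of single genes, 15.6% were lower without overlap in the Acb and 5.56% higher without overlap in the DS. With edgeR, 0 of 7 of these markers passed between genotypes in either region. The other cell types named here also had 0 markers past this test. Microglial markers had medians of -0.17 and 0.20 and endothelial markers of -0.12 and 0.51 in the Acb and the DS. The part of these cell types in the members' values was not tested.

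The polysomal loading of the members was read by setting each heavy library against the whole lysate of the same replicate number. By the study's methods both come from the same pool, while their residuals correlated only between -0.04 and 0.07. In wild-type Acb mice the log2 difference of heavy minus lysate was 0.26, -0.60 and -1.30 for Mt1, 0.06, -0.83 and -1.25 for Mt2 and -0.01, -0.93 and -1.37 for Mt3. In rpS6P-/- Acb mice it was -0.55, -1.67 and -2.65 for Mt1, -1.04, -1.70 and -2.58 for Mt2 and -1.07, -1.86 and -2.53 for Mt3. The members of a lysate thus stood close to each other while lysates of a group lay far apart. In the DS the values were -0.61, -1.03 and 0.23 for Mt1, -0.43, -0.90 and 0.28 for Mt2 and -0.59, -0.77 and 0.53 for Mt3 in wild-type mice. All were above 0 in rpS6P-/- DS mice, at 0.66, 0.32 and 0.91 for Mt1, 0.54, 0.46 and 0.91 for Mt2 and 0.23, 0.08 and 0.88 for Mt3.

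**Figure D4:**
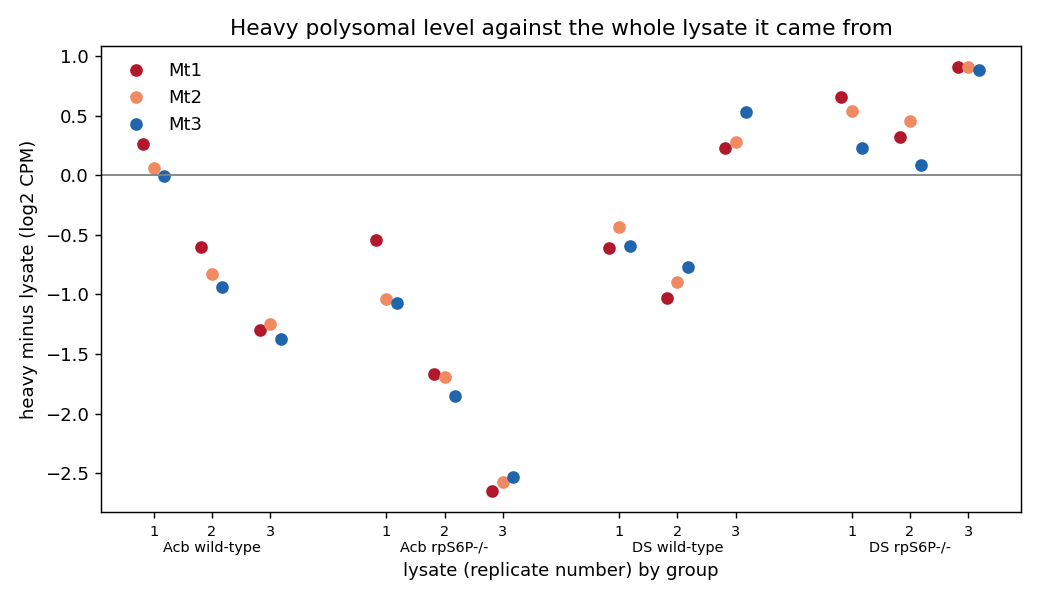
Log2 difference in CPM between the heavy polysomal library and the whole lysate of the same replicate number (vertical axis) for each of the 12 lysates (horizontal axis, by group) and each member (colours). The 3 members of a lysate lie together, and lysates range from -2.65 to 0.91.

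The heavy polysomal libraries of both genotypes chose the members, so the loading and the region differences on polysomes are given as values without a test. In wild-type mice the mean log2 difference of heavy minus lysate was -0.55 ± 0.78 for Mt1, -0.67 ± 0.67 for Mt2 and -0.77 ± 0.70 for Mt3 in the Acb (SD, n = 3). In the DS it was -0.47 ± 0.64, -0.35 ± 0.59 and -0.28 ± 0.70, and the regions overlapped for each member. In rpS6P-/- mice the means were -1.62 ± 1.05, -1.77 ± 0.77 and -1.82 ± 0.73 in the Acb and 0.63 ± 0.29, 0.64 ± 0.24 and 0.40 ± 0.43 in the DS, and every lysate of the Acb was below every lysate of the DS. The Acb minus DS difference in loading was thus -0.07, -0.32 and -0.50 in wild-type mice, smaller than the SD in either region, against -2.25, -2.41 and -2.22 in rpS6P-/- mice.

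Averages over the genotypes therefore join unlike values. The fitted averages were -0.95 ± 0.19 for Mt1, -1.14 ± 0.18 for Mt2 and -1.22 ± 0.16 for Mt3 in the Acb (SE). In the DS, where wild-type means were below 0 and rpS6P-/- means above it, they were 0.11 ± 0.12, 0.15 ± 0.12 and 0.06 ± 0.12. The DS averages turned negative once each library's trend on transcript length was removed, to -0.47 for Mt1, -0.42 for Mt2 and -0.51 for Mt3.

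The region difference of the level on heavy polysomes also depended on the genotype. In wild-type heavy libraries Mt1 averaged 174 ± 73.7 CPM in the Acb and 102 ± 33.9 CPM in the DS, and Mt2 averaged 83.4 ± 34.2 and 50.5 ± 10.9 CPM (SD, n = 3), the same order of the regions as in whole lysates but with overlap. Mt3 averaged 140 ± 60.1 CPM in the Acb and 131 ± 33.1 CPM in the DS of wild-type mice. In rpS6P-/- heavy libraries the order was turned, with Mt1 at 84.0 ± 62.8 CPM in the Acb and 188 ± 35.4 CPM in the DS, Mt2 at 39.2 ± 25.7 and 99.2 ± 15.7 CPM, and Mt3 at 66.7 ± 36.6 and 217 ± 45.6 CPM. The regions overlapped there for Mt1 and not for Mt2 and Mt3.

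The ratios between members differed by less than their spread between whole lysates and heavy polysomal fractions. Over 12 lysates the log2 ratio changed by 0.04 ± 0.19 (SD) for Mt1 to Mt2, by 0.12 ± 0.26 for Mt1 to Mt3 and by 0.08 ± 0.17 for Mt2 to Mt3. These changes hold the heavy libraries that chose the members and are given without a test. In heavy libraries the Mt2 to Mt3 ratio lay between 0.503 and 0.638 in the Acb and between 0.368 and 0.488 in the DS, the same order of the regions as in whole lysates.

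The shortness of these mRNAs is a property they share with other genes of the table. Over 264 other genes with a coding sequence of 300 bases or less, the median deviation from each gene's mean over the heavy libraries was -0.19, -0.56 and -1.12 in the rpS6P-/- and 0.43, -0.13 and -0.06 in the wild-type heavy libraries of the Acb (log2 CPM). In the DS it was 0.36, 0.39 and 0.68 in rpS6P-/- and 0.24, -0.30 and 0.45 in wild-type heavy libraries. The libraries with the lowest and the highest short-gene value, the third rpS6P-/- library of the Acb and the third of the DS, were also those where Mt3 was lowest (-1.73) and highest (1.15). Mt1 and Mt2 were lowest in the same library (-1.71 and -1.54), but highest in the first wild-type library of the Acb (1.09 and 1.02). Mt3 deviated to the same side as the short genes in 12 of 12 libraries and Mt1 and Mt2 in 9 of 12 each. In whole lysates the same measure, over 249 genes, stayed between -0.14 and 0.14. These heavy libraries chose the members, so the agreement of sides holds that choice in part and is only a description. The share of all genes that agree as often is not given. This list was chosen after its values had been seen, and its part in the members' values was not tested.

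**Figure D5:**
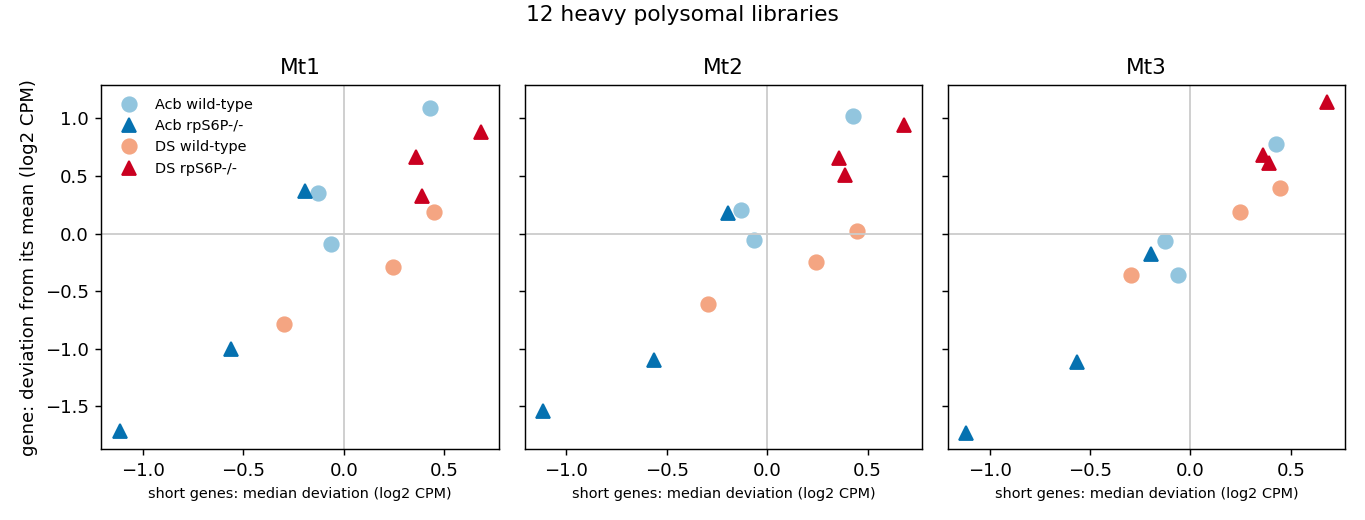
Deviation of each member from its mean over the 12 heavy polysomal libraries (vertical axes, log2 CPM) against the median deviation of 264 other genes with short coding sequences (horizontal axes, log2 CPM), 1 point per library. Mt3 lies on the same side of 0 as the short genes in 12 of 12 libraries, and Mt1 and Mt2 in 9 of 12 each. These libraries chose the members, and the share of all genes that agree as often is not given.

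Of 327 short genes fitted in Acb heavy polysomal fractions 297 were lower and 30 higher in rpS6P-/- mice. Their median log2 difference was -0.69 against -0.01 over all genes. Of 319 in the DS 260 were higher and 59 lower (median 0.38 against 0.03). Past the edgeR threshold were 0 of the 327 in the Acb and 3 of the 319 in the DS, all 3 higher. The share of all genes past it is not given here. Short genes share each library's trend, so these counts of signs are not independent. With each library's trend on coding length removed, the genotype differences of the members in Acb heavy polysomal fractions shrank to -0.32 for Mt1 and Mt2 and -0.31 for Mt3. In the DS they shrank to 0.57 for Mt1, 0.62 for Mt2 and 0.42 for Mt3. The signs were kept in both regions. In the test of loading between regions 72 of 343 short genes passed, all 72 lower in the Acb. Over all 17365 genes, 1.55% passed as lower in the Acb. This test averages the genotypes, which were unlike for the short genes too. Their median deviation in heavy libraries averaged 0.08 in the Acb and 0.13 in the DS of wild-type mice. In rpS6P-/- mice it averaged -0.62 and 0.48. The short-gene list was chosen after its values had been seen. The members' own fitted loading differences between regions, averaged over genotypes, were -1.03 for Mt1 and -1.25 for Mt2 and Mt3. They moved to -0.52, -0.75 and -0.77 with the coding length trend removed.

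Genes of metal handling were tested for the same difference in loading between regions, where 2.15% of 17365 genes passed in either direction. A pair of short copper chaperones was lower in the Acb, Cox17 (-1.04 ± 0.26, edgeR adjusted p = 0.020), which delivers copper to cytochrome oxidase, and Atox1 (-1.03 ± 0.25, 0.016), which delivers it to the copper ATPases. They were the 2 of 12 copper genes that passed. Gpx4, the lipid peroxide-reducing peroxidase, was the 1 of 15 oxidative stress genes that passed (-0.85 ± 0.21, edgeR adjusted p = 0.018), and Slc39a10 the 1 of 13 zinc importers (0.61 ± 0.16, 0.026). Loading tests average the genotypes, which were unlike for Atox1, Cox17 and Gpx4. In wild-type heavy libraries of the Acb and the DS, Atox1 averaged 47.2 and 45.4 CPM, Cox17 35.4 and 38.6 CPM and Gpx4 102 and 125 CPM. In rpS6P-/- heavy libraries Atox1 averaged 18.8 and 66.2 CPM, Cox17 17.3 and 47.8 CPM and Gpx4 56.6 and 166 CPM. Neither Mtf1 (0.37 ± 0.17, edgeR adjusted p = 0.29) nor Slc30a1 (0.25 ± 0.21, 0.64) passed, and 0 of 10 genes of MTF-1 and zinc exporters and 0 of 14 glucocorticoid-induced genes did with edgeR. In the Acb alone, where 31.7% of 16687 genes passed in either direction, Cox17 was lower in heavy polysomal fractions by -1.83 ± 0.18 and Gpx4 by -1.28 ± 0.14, while Sod1 (0.81 ± 0.11) and Prdx1, a thioredoxin-dependent peroxidase (1.02 ± 0.11), were higher. Among the neighbours of the cluster, Ogfod1 passed in the loading test between regions (0.53 ± 0.15, edgeR adjusted p = 0.049), with the higher loading in the Acb.

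The genes whose levels followed the members most closely differed between the kinds of RNA. Over the 12 heavy libraries, among 12269 genes with at least 50 reads on average, Mt1 and Mt2 were each other's closest gene (Pearson's r = 0.987). Next to Mt1 came Pou3f3os (0.947) and E2f6 (0.944), and next to Mt2 came Rps21 (0.957) and Uqcc2 (0.954). The coding sequences of E2f6, Rps21 and Uqcc2 hold 819, 252 and 411 bases, and Pou3f3os had no coding length. Mt3 was closest to Mrps21 (0.991), AI462493 (0.989) and Usmg5 (0.987), with coding sequences of 264, 270 and 177 bases, and Mt2 and Mt1 ranked 118 and 236 for it. Over the 12 whole lysates Mt1 was closest to Rps27a (0.979), Eef1a1 (0.976) and Rpl23 (0.972), with Mt2 at rank 5 (0.971). Mt2 was closest to Impact (0.973), Mt1 (0.971) and Pnck (0.969), and Mt3 to Rpl39 (0.973), with Rpl36a at rank 3 (0.941). These correlations describe 12 libraries that share region, genotype and the length trend of a library. Over the heavy libraries, that of Mt1 with Mt2 also holds the shared pattern for which the members were chosen.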

How the data were processed

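Polyadenylated RNA of 12 whole lysates and of their 12 heavy polysomal fractions was sequenced as stranded single-end reads. Per the labels and the study's methods, the authors aligned reads with TopHat2 2.0.13 and Bowtie2 2.2.3 to mm10, kept those with at most 3 mismatches, assigned them to genes on the opposite strand with HTSeq 0.6.1p1 and deposited raw counts, without normalization. Reads of bacterial origin led the authors to sequence libraries in several runs. The members and gene lists were chosen with earlier results of these data known.

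CPM were scaled by TMM over all 24 libraries. Each comparison was fitted on every gene with at least 15 reads over its libraries, with edgeR 4.0.16 (TMM, glmQLFit with legacy settings, quasi-likelihood F test) in R 4.3.3, Benjamini-Hochberg over all genes, threshold 0.05. Standard errors are the log2 difference divided by the root of F. Region and loading tests average the genotypes with equal weight. Fits that hold heavy polysomal libraries were planned as tests of the members too, but those libraries chose the members and the genotypes differed in spread, so the members' p-values are not given there. Ratio tests were exact permutation tests adjusted over 6, and the p-values of those between heavy and lysate are not given for the same reason. Named genes were the members, Mt4, 3 neighbours on each side, the 3 closest genes by correlation (log2 CPM, prior count 2, with 1 gene not reported here), Mtf1, Slc30a1 and the largest differences of each list. Positions and promoters came from RefSeq on GRCm38.p6, transcripts from GENCODE M21, where 21208 genes had a transcript length and 20375 a coding length. Alternatives were DESeq2 1.42.0 (size factors, Wald test), other read filters, removal of a trend on transcript length (loess, span 0.5), a replicate block, Bc1 left out, and each library or lysate left out. Removal of a trend on coding length was added after seeing the data. On simulated counts with known changes in genes of at least 50 reads on average, the edgeR fits recovered most changed genes. The simulation gave a gene the same spread in every group and no length trend, so it does not cover groups of unequal spread. Replicates are pools of mice, so p-values measure the spread between pools. Counting error was not set against that spread group by group. In rpS6P-/- DS lysates the spread was itself small, with Mt1 at 120 ± 1.62 CPM and Mt2 at 63.3 ± 1.88 CPM (SD, n = 3). Replicate numbers were checked for pairing: residuals of the heavy and whole library of 1 lysate correlated between -0.04 and 0.07, 0 of 12 above 0.1, and those of same-numbered genotypes between -0.29 and 0.32. The heavy and whole library of a lysate come from the same pool by the methods, and loading was therefore also fitted with the lysate as block.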

Additional observations from a re-analysis of the deposited data

Results flagged for a closer look

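The genotype difference in heavy polysomal fractions had opposite directions in the regions for each member. In the Acb all 3 rpS6P-/- libraries lay below the wild-type mean and in the DS all 3 lay above it, for Mt1, Mt2 and Mt3. The Acb difference minus the DS difference was -1.92 for Mt1, -2.05 for Mt2 and -1.77 for Mt3 on the log2 scale. This difference was not tested, because it chose the members.

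Groups of 3 libraries were too small for the test of single libraries that stand apart.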

How the results depend on the processing

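Of 722 alternative values, 636 were counted as unchanged. A tested value had to keep its side of the threshold, so its sign could turn where neither value passed. The genotype difference of Mt3 in whole DS lysates, for example, lay between -0.20 and 0.23. An untested value had to keep its direction and move by less than the spread between replicates, and a count of genes had to stay within a set factor. Region differences of the members in whole lysates passed in every alternative run, and genotype differences of the members in whole lysates in none. The loading of the members in the DS, averaged over genotypes, turned from positive to negative with the transcript length trend removed (Mt1 -0.47, Mt2 -0.42, Mt3 -0.51), with the coding length trend removed (-0.31, -0.25, -0.38) and with a replicate block (here the lysate) and the coding length trend removed together (-0.31, -0.25, -0.36). The loading difference between regions moved to -0.52, -0.75 and -0.77 without the coding length trend, and with the block as well to -0.78 for Mt2 and -0.82 for Mt3. In heavy polysomal fractions the genotype difference of Mt3 in the Acb moved to -0.31 with the coding length trend removed, alone or with the block, and that of Mt2 in the DS to 0.62 and 0.63. The region difference there, fitted at -0.20 for Mt1 and -0.31 for Mt2, moved to 0.0050 for Mt1 with the transcript length trend removed, to 0.22 and 0.10 with the coding length trend removed and to 0.16 and 0.064 with the block as well. The cause was not tested. Without 1 lysate the loading in the DS lay between -0.077 and 0.23 for Mt1, between -0.0036 and 0.28 for Mt2 and between -0.13 and 0.16 for Mt3, the lowest without the third wild-type lysate, and for Mt3 it was also below 0 without the third rpS6P-/- lysate (-0.067). Without 1 lysate the log2 ratio difference between regions lay between 0.32 and 0.44 for Mt1 to Mt3 and between 0.42 and 0.53 for Mt2 to Mt3.

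Counts of genes called between genotypes in whole Acb lysates were 1 in the fit reported, 0 with filterByExpr, 2 with no filter beyond 1 read, 2 with either length trend removed, 5 with the replicate block, 3 with the block and coding length, and 0 to 3 without 1 library. In whole DS lysates they were 19, and 2 with filterByExpr, 66 with no filter, 95 with DESeq2, 6 and 8 with the transcript and coding length trends removed, 71 with the replicate block and 1 to 56 without 1 library. For genotype by region they were 1, and 0 with filterByExpr and with DESeq2, 3 with no filter, 6 with the replicate block, 5 with the block and coding length, and 0 to 4 without 1 library. For loading between regions they were 374, and 746 with no filter, 697 with DESeq2, 788 with the block, 230 without the coding length trend and 105 to 818 without 1 lysate. The replicate block changed no call of a member when used alone, with the region difference of Mt1 in whole lysates at 0.87 (edgeR adjusted p = 1.11e-22). Replicate numbers of the genotypes did not pair the samples, with 2 of 12 correlations above 0.1.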
